A study of Rattus norvegicus with 18 samples.

Results

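The 8 genes described here carry water, urea and steroid handling along the renal collecting duct and its neighbours: the aquaporins Aqp1, Aqp2, Aqp3, Aqp4 and Aqp6, the type 2 vasopressin receptor Avpr2, the urea transporter Slc14a2 and the steroid dehydrogenase Hsd11b2. They were chosen by name. Every probe set annotated to one of them was taken, which gave 16 of the 31042 probe sets of the array that are not controls. Of these 16, 9 probe sets of 7 genes were bright enough to be tested, and Aqp6 was the gene with none.

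Whole kidneys of 9 S.SHR(2) and 9 Dahl S rats were each measured on 1 Affymetrix Rat Genome 230 2.0 array, a short-oligonucleotide array that reports 1 brightness, or intensity, per probe set. S.SHR(2) is a congenic strain, described by the labels as renal protective and as derived from SS/Jr and SHR/NHsd, that carries part of chromosome 2 of the spontaneously hypertensive rat on the Dahl S background. Dahl S (SS/Jr) is the inbred salt-sensitive rat and supplies the genetic background of both groups. Per the design text, 3 males of each strain were taken at each of weeks 4, 12 and 20. The labels state an age for 2 Dahl S rats alone, 4 weeks for replicate 2 and 12 weeks for replicate 4, each male and on a 0.3% NaCl diet, so no rat was placed in an age group. In the order of deposit the arrays form 3 runs of 6, each with 3 Dahl S and then 3 S.SHR(2) rats, and these runs are called deposit blocks 1, 2 and 3. Block 1 holds replicates 1 to 3 of each strain, block 2 replicates 4 to 6 and block 3 replicates 7 to 9. The rat labelled 4 weeks lies in block 1 and the rat labelled 12 weeks in block 2. Age and deposit block therefore cannot be told apart in these data. The sources used here do not otherwise say what distinguishes the blocks, which were therefore compared by values with no test. In the gene table of the assembly GRCr8 none of the 8 genes lies on chromosome 2.

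Vasopressin sets how much water the collecting duct takes back. It binds Avpr2 on the principal cell, raises cyclic AMP and brings Aqp2 to the apical membrane, and over longer times it also raises Aqp2 transcription. Water then leaves the cell through Aqp3 and Aqp4 in the basolateral membrane, while Slc14a2 lets urea into the inner medulla, and Hsd11b2 inactivates corticosterone so that the mineralocorticoid receptor of these cells answers to aldosterone. Aqp1 is the water channel of the proximal tubule and thin descending limb, and Aqp6 sits in vesicles of intercalated cells.

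RefSeq promoter windows of GRCr8, from 250 bases before to 50 bases after a transcript's start, were matched by symbol for 7 of the 8 genes, in 9 entries. There was no entry for Hsd11b2. The windows of 4 principal cell genes whose levels are compared over rats below are shown, because these are the genes set against Aqp2. Capitals mark matches to the cyclic AMP response element core TGACG, or CGTCA on the other strand, and to the GATA core, GATA or TATC. For Aqp4, which has 2 entries, 1 is shown.
Aqp2 promoter, chr7:132590036-132590335, plus strand: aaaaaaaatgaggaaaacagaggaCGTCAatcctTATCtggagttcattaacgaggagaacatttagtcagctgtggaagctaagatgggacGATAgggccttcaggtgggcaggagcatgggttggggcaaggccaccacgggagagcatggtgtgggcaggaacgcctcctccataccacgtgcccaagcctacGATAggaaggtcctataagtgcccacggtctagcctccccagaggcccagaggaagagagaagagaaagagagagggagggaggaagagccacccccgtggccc
Aqp3 promoter, chr5:61040634-61040933, minus strand: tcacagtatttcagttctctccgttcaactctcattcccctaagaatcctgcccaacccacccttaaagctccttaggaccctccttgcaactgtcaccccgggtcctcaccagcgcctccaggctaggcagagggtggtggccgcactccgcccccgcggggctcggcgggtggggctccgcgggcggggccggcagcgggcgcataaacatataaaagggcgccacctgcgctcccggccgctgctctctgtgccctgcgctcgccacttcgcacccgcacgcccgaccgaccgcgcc
Aqp4 promoter, chr18:6798793-6799092, minus strand: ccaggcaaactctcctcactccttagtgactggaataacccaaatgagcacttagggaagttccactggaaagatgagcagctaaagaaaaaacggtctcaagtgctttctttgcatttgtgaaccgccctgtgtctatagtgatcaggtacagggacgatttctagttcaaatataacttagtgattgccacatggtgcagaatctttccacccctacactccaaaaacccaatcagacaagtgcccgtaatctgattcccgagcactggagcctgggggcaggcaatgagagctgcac
Avpr2 promoter, chrX:156784889-156785188, plus strand: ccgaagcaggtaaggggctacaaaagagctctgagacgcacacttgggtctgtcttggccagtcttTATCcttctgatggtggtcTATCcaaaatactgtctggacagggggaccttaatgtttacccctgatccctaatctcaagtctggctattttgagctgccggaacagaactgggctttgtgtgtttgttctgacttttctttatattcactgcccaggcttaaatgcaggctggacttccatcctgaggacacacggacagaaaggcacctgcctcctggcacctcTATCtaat

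The Aqp2 window held 1 cyclic AMP response core, with its first base at position -226 from the start, and 3 GATA cores. None of the other 8 entries held this core, which was present in 21.2% of all 33469 promoter windows. The GATA core occurred 3 times in the Avpr2 window and in neither of the windows shown for Aqp3 and Aqp4, against 60.5% of all windows with at least 1. The TATAA motif, searched on both strands, occurred once in each window shown and in 26.2% of all windows. The Aqp4 entry that is not shown differed, with 1 GATA core at position +32 and 0 TATAA matches. These are matches of letters in a short window and carry no measurement of a factor.

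Aqp2, the apical channel under vasopressin control, had an intensity in block 1 of 3594, 3528 and 3475 in the S.SHR(2) rats and of 3104, 3216 and 3335 in the Dahl S rats. In block 2 it was 2094, 2174 and 2486 in the S.SHR(2) rats and 2076, 3138 and 2122 in the Dahl S rats. In block 3 it was 2018, 2592 and 1662 in the S.SHR(2) rats and 2037, 2003 and 1780 in the Dahl S rats. Every rat of block 1 lay above every rat of block 3, and 1 rat of block 2, Dahl S replicate 5, reached the block 1 range. Over the strains the ranges overlapped almost wholly, 1662 to 3594 with a median of 2486 in S.SHR(2) and 1780 to 3335 with a median of 2122 in Dahl S.

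Aqp3, the basolateral water and glycerol channel, had intensities of 1143, 986 and 1050 in the S.SHR(2) rats and 1002, 1028 and 1101 in the Dahl S rats of block 1. In block 2 they were 722, 868 and 841 in the S.SHR(2) rats and 635, 733 and 702 in the Dahl S rats. In block 3 they were 904, 1072 and 752 in the S.SHR(2) rats and 745, 712 and 635 in the Dahl S rats. Block 2 lay wholly below block 1, whereas 1 rat of block 3, S.SHR(2) replicate 8, fell within the block 1 range. In block 3 the 3 S.SHR(2) rats were all brighter than the 3 Dahl S rats, while in block 1 the strains interleaved.

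Aqp4, the other basolateral water channel, varied most widely of the 9 tested probe sets. Its probe set 1372190_at read 237, 285 and 300 in the S.SHR(2) rats and 115, 164 and 345 in the Dahl S rats of block 1. In block 2 it read 72.0, 43.4 and 158 in the S.SHR(2) rats and 53.9, 121 and 95.8 in the Dahl S rats. In block 3 it read 59.3, 50.8 and 56.3 in the S.SHR(2) rats and 83.9, 71.7 and 48.2 in the Dahl S rats. The median was 261 in block 1, 83.9 in block 2 and 57.8 in block 3, and every rat of block 3 lay below every rat of block 1. Its other probe sets, 1368981_at and 1387397_at, were below the level at which probe sets were tested, with intensities of 13.9 to 62.7 and 1.70 to 20.1. The dim 1368981_at had block medians of 37.0, 23.9 and 18.1 with overlapping ranges. Those of 1387397_at were 13.1, 10.5 and 10.7, also with overlap.

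Avpr2, the receptor through which vasopressin acts on the principal cell, was read by probe set 1369873_at at 133, 130 and 138 in the S.SHR(2) rats and 177, 153 and 129 in the Dahl S rats of block 1. In block 2 it read 126, 78.6 and 101 in the S.SHR(2) rats and 93.9, 82.1 and 93.6 in the Dahl S rats, and in block 3 it read 93.3, 103 and 106 in the S.SHR(2) rats and 85.3, 85.4 and 117 in the Dahl S rats. No rat of block 2 or 3 reached the lowest rat of block 1. The second probe set, 1371265_at, was not tested, and its block medians were 32.8, 22.7 and 21.3.

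Hsd11b2, the dehydrogenase that protects the mineralocorticoid receptor, read 1859, 1756 and 1788 in the S.SHR(2) rats and 1242, 1747 and 1540 in the Dahl S rats of block 1. In block 2 it read 1271, 1154 and 1097 in the S.SHR(2) rats and 1016, 1260 and 989 in the Dahl S rats. In block 3 it read 1216, 1265 and 1151 in the S.SHR(2) rats and 1028, 1038 and 1201 in the Dahl S rats. The lowest rat of block 1, Dahl S replicate 1, stood inside the block 2 range. The other 5 rats of block 1 were above every rat of blocks 2 and 3. As deposited, that lowest rat at 1242 overlapped block 3, whose highest rat read 1265, and after quantile normalization it lay above block 3, at 10.31 against at most 10.28 on the log2 scale.

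Slc14a2, the inner medullary urea transporter, has 5 probe sets. The brightest, 1387550_a_at, read 225, 263 and 200 in the S.SHR(2) rats and 226, 207 and 292 in the Dahl S rats of block 1. In block 2 it read 78.5, 75.4 and 174 in the S.SHR(2) rats and 73.3, 110 and 161 in the Dahl S rats, and in block 3 it read 91.3, 145 and 88.1 in the S.SHR(2) rats and 114, 132 and 85.8 in the Dahl S rats. No rat of block 2 or 3 reached 200, the lowest value of block 1. The second tested probe set, 1371205_at, had block medians of 53.7, 34.8 and 28.6 with ranges that overlapped. The 3 dim ones, 1398312_s_at, 1370494_at and 1371204_at, lay between 1.50 and 63.6 over all rats, and their blocks overlapped throughout.

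Aqp1, the constitutive water channel of the proximal nephron, did not share this layout. Its probe set 1369625_at read 2166, 2932 and 3015 in the S.SHR(2) rats and 3512, 3010 and 2877 in the Dahl S rats of block 1. In block 2 it read 2767, 2958 and 3120 in the S.SHR(2) rats and 3059, 2375 and 3211 in the Dahl S rats, and in block 3 it read 3088, 2939 and 2898 in the S.SHR(2) rats and 2437, 2752 and 3059 in the Dahl S rats. The block medians were 2971, 3008 and 2918 and all blocks overlapped. The second probe set, 1387651_at, had medians of 1236, 1429 and 1173, also with overlap. Aqp6, the intercalated cell channel, had 1 probe set, 1369298_at, with 17.8 to 44.3 in S.SHR(2) and 11.3 to 29.0 in Dahl S.

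**Figure D1:**
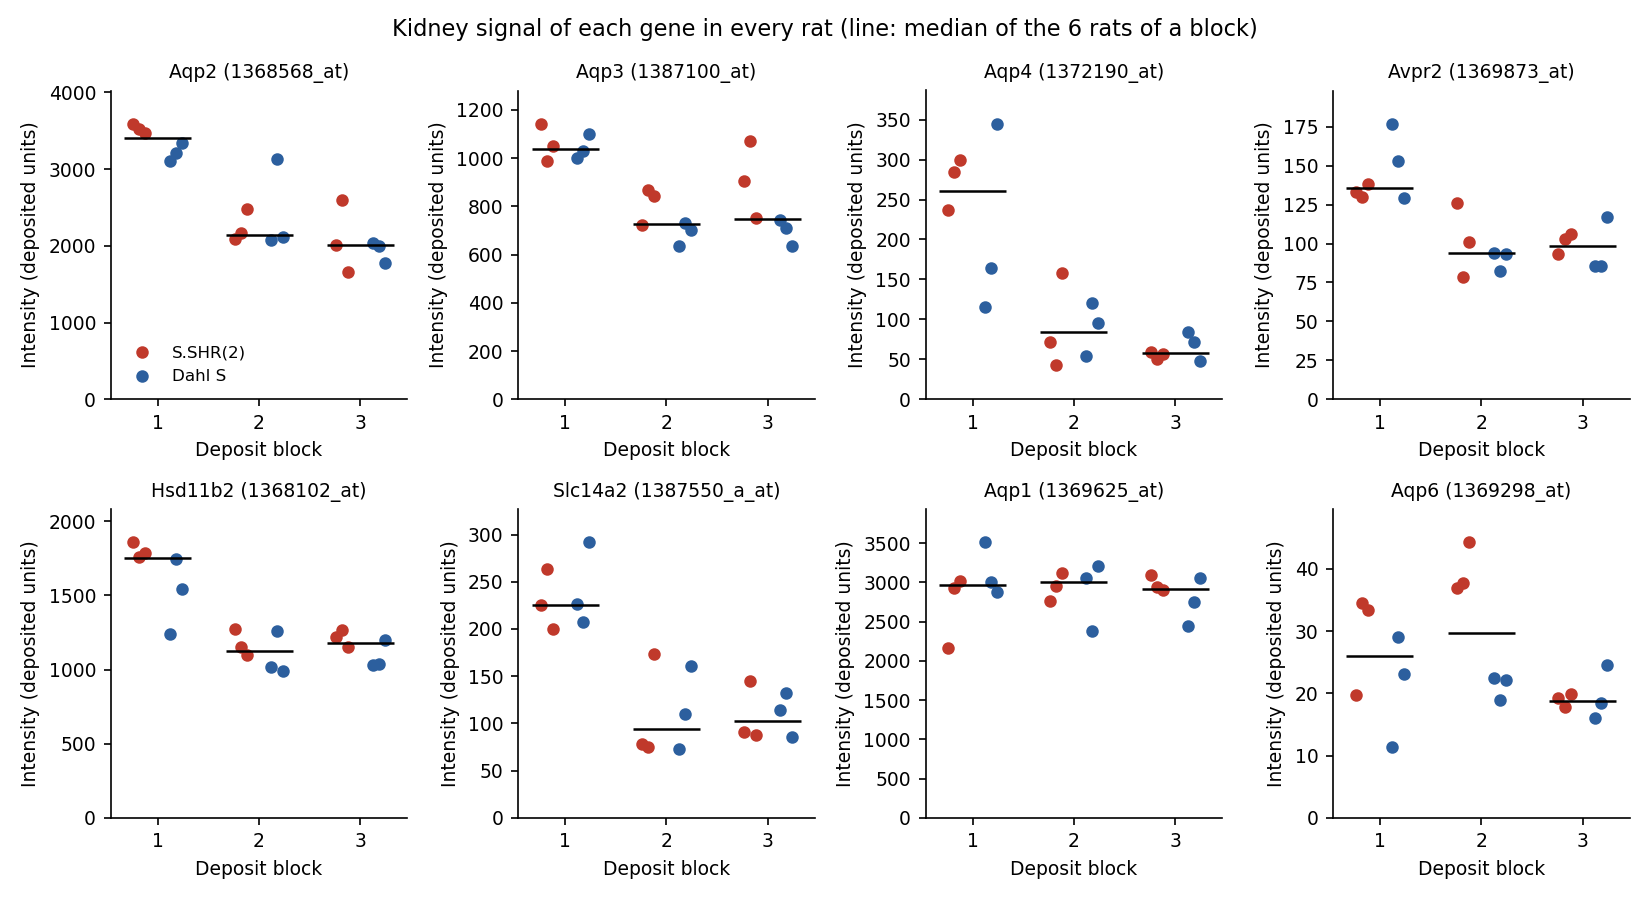
Deposited intensity (vertical axes, linear, from 0) of the brightest probe set of each of the 8 genes in every rat, by deposit block (horizontal axes). Red points are S.SHR(2) rats, blue points are Dahl S rats and each line is the median of the 6 rats of a block. Aqp2, Aqp3, Aqp4, Avpr2, Hsd11b2 and Slc14a2 have their highest median in block 1, whereas the Aqp1 medians are 2971, 3008 and 2918.

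The first comparison asked whether the strains differed in these genes, and no difference passed the test. Of the 9 tested probe sets 0 were called, either without covariates or with the deposit block as a term, and 0 had an unadjusted p under 0.05 without covariates (limma, two-sided, Benjamini-Hochberg adjustment over all 18625 probe sets tested, a call being an adjusted p under 0.05). Over all tested probe sets the same fit called 23, which is 0.123%, with 4 higher and 19 lower in S.SHR(2), and 748 had an unadjusted p under 0.05. With the block as a term it called 92, which is 0.494%. The strain ranges overlapped for all 16 probe sets of the genes, and 0.102% of all tested probe sets had ranges that did not.

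On the scale of log2(intensity + 16) after quantile normalization, Aqp2 differed by -0.01 ± 0.156 (SE, S.SHR(2) minus Dahl S, 9 rats each), with a 95% interval of -0.33 to 0.32 and an adjusted p of 1.0 in limma. Its mean intensity was 2625 ± 731 in S.SHR(2) and 2535 ± 640 in Dahl S (SD, n = 9 each). The interval, without covariates, leaves room for an S.SHR(2) level between 0.795 and 1.25 times that of Dahl S. With the block as a term it was 0.881 to 1.13 times. A p of this size does not show equal levels. Avpr2 differed by 0.04 ± 0.135 and Slc14a2, by 1387550_a_at, by -0.04 ± 0.261, with adjusted p of 1.0 in limma. Aqp4, the gene of widest spread, differed by 0.12 ± 0.371, and its interval ran from -0.65 to 0.89. With the block as a term it ran from -0.28 to 0.52. Without covariates the interval was narrowest for Aqp1, by 1369625_at, at -0.19 to 0.08 around a difference of -0.05.

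Of the 9 tested probe sets, those of Aqp3 and Hsd11b2 had the smallest p for strain. Aqp3 averaged 927 ± 146 in S.SHR(2) and 810 ± 181 in Dahl S (SD, n = 9 each), a log2 difference of 0.18 ± 0.119 (SE). Its unadjusted p was 0.16 in limma without covariates and 0.014 with the block as a term, where the adjusted p was 0.38 and the interval 0.04 to 0.31. Within the blocks the mean difference was 0.01, 0.22 and 0.30. Hsd11b2 averaged 1395 ± 310 in S.SHR(2) and 1229 ± 261 in Dahl S (SD, n = 9 each), a log2 difference of 0.15 ± 0.132 (SE). With the block as a term its unadjusted p was 0.033 and its adjusted p 0.48 in limma, and the differences within blocks were 0.26, 0.11 and 0.08. Both genes were thus higher on average in S.SHR(2) in each block, by amounts that did not pass the adjustment.

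For Aqp2, Aqp4, Avpr2 and Slc14a2 (1387550_a_at) the blocks did not run one way. The mean difference within blocks was 0.13, -0.12 and -0.03 for Aqp2, 0.52, -0.08 and -0.08 for Aqp4, -0.15, 0.13 and 0.14 for Avpr2 and -0.05, -0.10 and 0.04 for this Slc14a2 probe set. The block 1 value of Aqp4 comes from 3 S.SHR(2) rats at 237 to 300 and 3 Dahl S rats at 115, 164 and 345, which overlap.

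Aqp6 lay below the level at which probe sets were tested. Its median intensity was 33.4 in S.SHR(2) and 22.1 in Dahl S, with overlapping ranges, and its log2 difference was 0.32, with 0.30, 0.56 and 0.11 within the blocks. An exact permutation test over all 48620 splits of the rats gave an unadjusted two-sided p of 0.0092, and it was the only 1 of the 16 probe sets with such a p under 0.05. When limma was fitted on all 31042 probe sets, the unadjusted p was 0.013 and the adjusted p 1.0. The 3 S.SHR(2) rats of block 2, at 36.9, 37.7 and 44.3, stood above the 3 Dahl S rats of that block, at 22.5, 19.0 and 22.1, whereas in block 3 the strains overlapped.

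**Figure D2:**
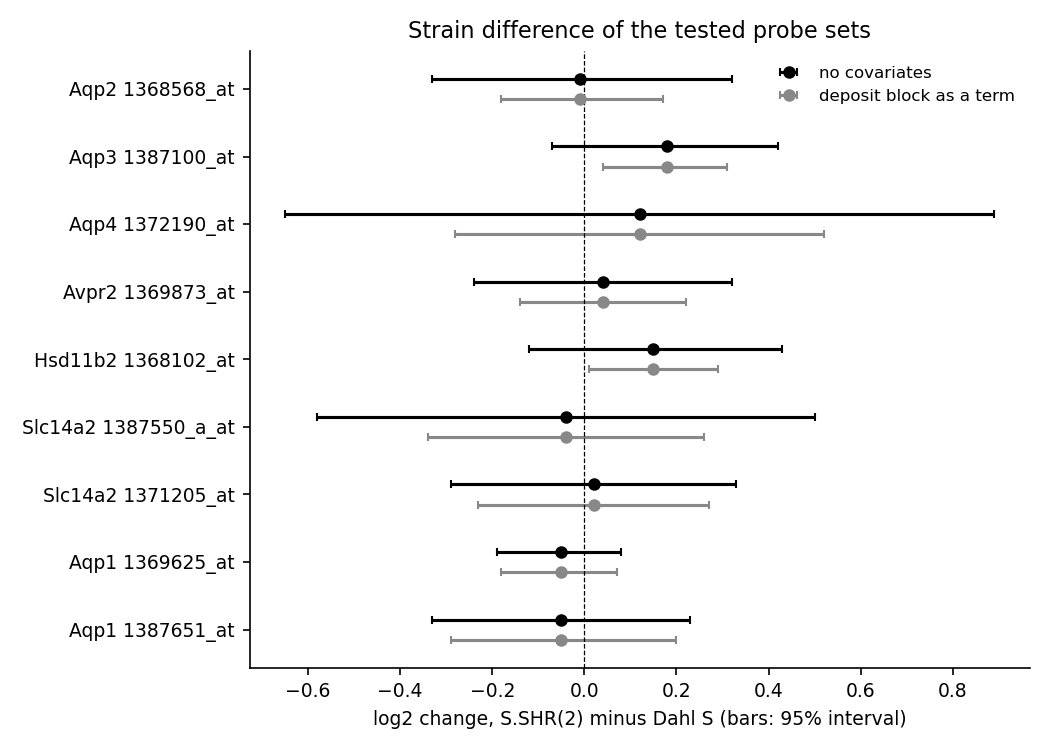
Log2 difference, S.SHR(2) minus Dahl S (horizontal axis), for the 9 tested probe sets. Points are limma estimates and bars their 95% intervals, black without covariates and grey with the deposit block as a term. The black bars all include 0, and the grey bars of Aqp3 and Hsd11b2, 0.04 to 0.31 and 0.01 to 0.29, do not.

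The levels of 6 of the genes, each read by its brightest probe set, were laid out by deposit block. On the normalized log2 scale the median of block 2 minus that of block 1 was -0.64 for Aqp2, -0.53 for Aqp3, -1.51 for Aqp4, -0.46 for Avpr2, -0.66 for Hsd11b2 and -1.17 for Slc14a2. Block 3 minus block 1 gave -0.74 for Aqp2, -0.48 for Aqp3, -1.85 for Aqp4, -0.37 for Avpr2, -0.61 for Hsd11b2 and -1.03 for Slc14a2. In deposited units the block 3 median was 0.222 times that of block 1 for Aqp4, 0.456 times for Slc14a2 and 0.590 times for Aqp2. Other probe sets of these genes differed less. The ratio was 0.534 for the second tested Slc14a2 probe set, and 0.489 and 0.813 for the dim Aqp4 probe sets 1368981_at and 1387397_at. Blocks 2 and 3 were close, with differences from -0.34 for Aqp4 to 0.14 for Slc14a2, and 0 of the 9 tested probe sets were separated between them. Among all tested probe sets, block 3 was wholly below block 2 in 10.5% and wholly above it in 9.49%.

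Separation from block 1 was common among the genes and also not rare on the array. Block 3 was wholly below block 1 for 5 of the 9 tested probe sets, those of Aqp2, Aqp4, Avpr2, Hsd11b2 and Slc14a2 (1387550_a_at), where 9.39% of all tested probe sets were. With the values as deposited, or with arrays centred on their medians, it was 4 of 9, since Hsd11b2 then overlapped. The share of all tested probe sets is given for the quantile-normalized values alone. Block 2 was wholly below block 1 for 3 of 9, those of Aqp3, Avpr2 and Slc14a2, where 4.15% of all tested probe sets were. Avpr2 and Slc14a2 met both conditions, as did 1.98% of all tested probe sets. No tested probe set of the genes lay wholly above block 1 in either later block, against 4.54% of all tested probe sets for block 2 and 8.48% for block 3. Whole kidney was measured, so fewer cells of a type and less RNA per cell cannot be told apart.

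The share of the variance over the 18 rats that lay between blocks was 74.3% for Hsd11b2, 71.5% for Aqp4, 71.2% for Aqp2, 69.9% for Slc14a2 (1387550_a_at), 68.7% for Aqp3 and 66.9% for Avpr2. These shares stood between the 82.1 and the 88.6 percentile of all tested probe sets, whose median was 36.7%. The second Slc14a2 probe set had 45.6%. Aqp1 had 8.31% by 1369625_at and 14.0% by 1387651_at, at the 12.5 and the 20.4 percentile.

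**Figure D3:**
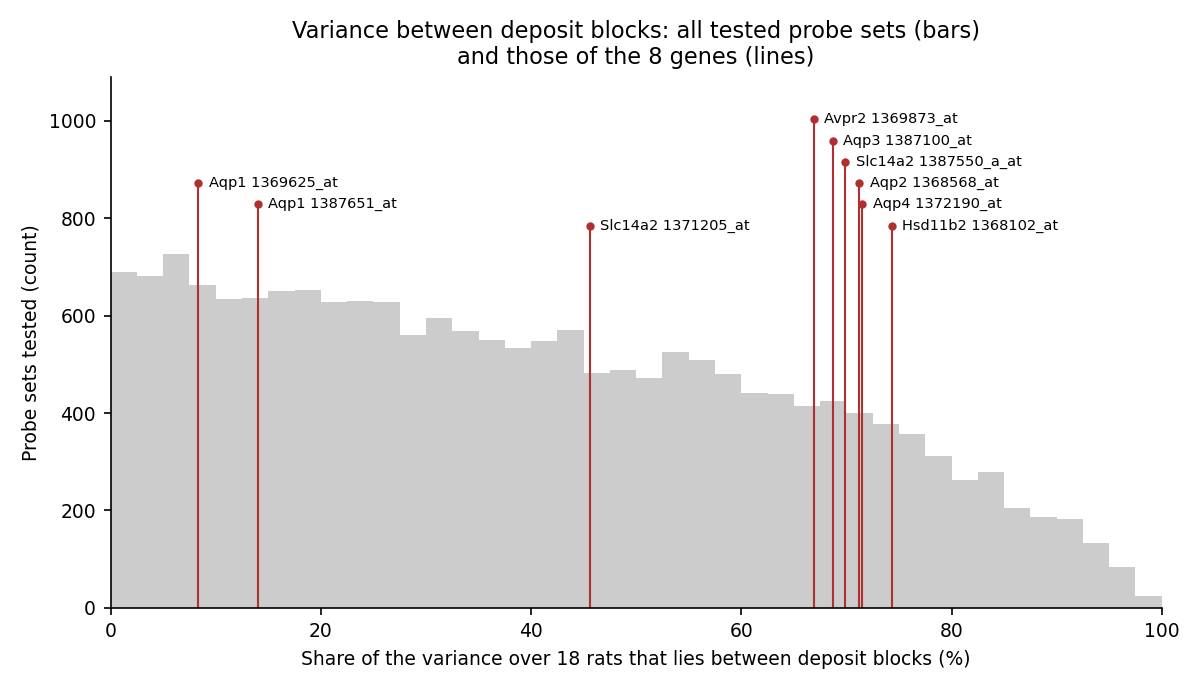
Share of the variance over 18 rats that lies between the 3 deposit blocks (horizontal axis, percent) for all 18625 tested probe sets (grey bars, count on the vertical axis). Red lines mark the 9 tested probe sets of the genes, and their heights carry no value. The 6 lines of Aqp2, Aqp3, Aqp4, Avpr2, Hsd11b2 and Slc14a2 (1387550_a_at) stand between 66.9% and 74.3%, and the Aqp1 lines at 8.31% and 14.0%.

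The genes of the principal cell were then compared over rats. Each of Aqp2, Aqp3, Aqp4, Avpr2 and Hsd11b2 was correlated with every tested probe set over 18 rats, with a two-sided permutation p from 100000 resamples and Benjamini-Hochberg adjustment over 18624 probe sets. Rats were permuted across the deposit blocks, so a p over all rats takes in levels shared by the rats of a block. Of the 10 pairs among these 5 genes 8 were called, all positive, and 12 of 20 relations were called when Slc14a2 and Aqp1 were added. Positive calls made up 9.78% of all probe sets for Aqp2, 4.56% for Aqp3, 7.24% for Aqp4, 3.82% for Avpr2 and 7.42% for Hsd11b2. By Spearman's rho 5 of the 10 pairs were called, where positive calls made up 7.22% for Aqp2, 1.66% for Aqp3, 3.76% for Aqp4, 2.06% for Avpr2 and 1.62% for Hsd11b2. Without the 2 rats farthest from the median 3 pairs were called, where positive calls made up 2.52% for Aqp2, 2.77% for Aqp3, 3.09% for Aqp4, 0.0161% for Avpr2 and 0.0322% for Hsd11b2. Within strain and block 0 pairs were called, and 0% of all probe sets were with any of the 5 genes, so this count says nothing particular to the pairs. By the exact permutation test within strain and block 3 pairs had an unadjusted p under 0.05, as did 1306 to 2265 of the 18624 probe sets for each gene. Aqp2 with Aqp3 and Aqp2 with Aqp4 were positive there, with r of 0.74 and 0.49. The third, Aqp3 with Avpr2, was negative at -0.55, opposite to its r of 0.64 over all rats.

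Aqp2 and Aqp4, the apical and a basolateral channel of the same cell, had the highest r of the 10 pairs. Their Pearson r over 18 rats was 0.86 (permutation p = 2.0e-05, adjusted p = 0.0020) and Spearman's rho was 0.81 (permutation p = 9.0e-05, adjusted p = 0.0077). Of all tested probe sets 0.263% correlated at least as strongly with Aqp2. Without the 2 rats farthest from the median r was 0.82 (adjusted p = 0.022). It was 0.86 in the 9 S.SHR(2) rats (exact permutation p = 0.0050) and 0.88 in the 9 Dahl S rats (exact permutation p = 8.8e-05). Each strain spans all blocks, so both values again take in the difference between blocks. Within the blocks of 6 rats r was 0.77, 0.60 and 0.29, with exact permutation p of 0.078, 0.20 and 0.60. When each rat was expressed as its deviation from the 3 rats of its strain and block, r was 0.49, with an exact permutation p of 0.017 and an adjusted p of 0.32.

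Aqp2 with Aqp3 gave r = 0.76 (permutation p = 5.8e-04, adjusted p = 0.0099) and rho = 0.73 (adjusted p = 0.020). This pair kept the largest r among deviations within strain and block, 0.74, with an exact permutation p of 0.0074 and an adjusted p of 0.26. Single blocks of 6 gave 0.62, 0.14 and 0.60, with exact permutation p of 0.19, 0.75 and 0.20. Without the 2 rats farthest from the median r was 0.67 and the adjusted p 0.066.

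Aqp2 with Hsd11b2 gave r = 0.80 (permutation p = 8.0e-05, adjusted p = 0.0037) and rho = 0.70 (adjusted p = 0.026). Within blocks r was 0.69, 0.52 and -0.08, with exact permutation p of 0.12, 0.32 and 0.87. Among deviations within strain and block r was 0.40 (exact permutation p = 0.19, adjusted p = 0.60). Hsd11b2 also correlated with Aqp3 at 0.77 (adjusted p = 0.013) and with Aqp4 at 0.77 (adjusted p = 0.011). By Spearman's rho its relation with Aqp3 was called (0.71, adjusted p = 0.046) and that with Aqp4 was not (0.60, adjusted p = 0.080). Among deviations within strain and block r was 0.04 with Aqp3 and 0.10 with Aqp4 (exact permutation p of 0.87 and 0.81). Within strain and block 0% of all probe sets were called with Hsd11b2 after adjustment. A p of this size there does not show that a relation is absent.

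Slc14a2, which belongs to the inner medullary duct, went with the aquaporins over rats. Its r was 0.87 with Aqp4 (adjusted p = 0.0045), 0.81 with Aqp2 (adjusted p = 0.0045) and 0.80 with Aqp3 (adjusted p = 0.013). Of all tested probe sets 0.0698% correlated at least as strongly with Aqp4. Among deviations within strain and block, r with Aqp4 was 0.69 (exact permutation p = 0.018, adjusted p = 0.62), with Aqp3 0.57 (exact permutation p = 0.056, adjusted p = 0.56) and with Aqp2 0.45 (exact permutation p = 0.17, adjusted p = 0.58). With Hsd11b2 the r was 0.65 (adjusted p = 0.034) over all rats and -0.27 among these deviations (exact permutation p = 0.37).

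Avpr2 went less closely with Aqp2 and Aqp4 over all rats than the other channels and Slc14a2 did. Its r over rats was 0.52 with Aqp2 (adjusted p = 0.097) and 0.53 with Aqp4 (adjusted p = 0.099), neither called, 0.64 with Aqp3 (adjusted p = 0.049) and 0.69 with Hsd11b2 (adjusted p = 0.032). Among deviations within strain and block r was -0.36 with Aqp2 (exact permutation p = 0.065, adjusted p = 0.44), -0.55 with Aqp3 (exact permutation p = 0.022, adjusted p = 0.51), -0.38 with Aqp4 (exact permutation p = 0.35, adjusted p = 0.88) and 0.01 with Hsd11b2 (exact permutation p = 0.97). In block 1 alone the rat with the brightest Avpr2, Dahl S replicate 1 at 177, had the lowest Aqp2, 3104, and the lowest Aqp4, 115. The r of Avpr2 in that block was -0.86 with Aqp2 (exact permutation p = 0.015) and -0.96 with Aqp4 (exact permutation p = 0.0083). In blocks 2 and 3 it was -0.41 and -0.23 with Aqp2 (exact permutation p of 0.40 and 0.66) and 0.07 and -0.95 with Aqp4 (exact permutation p of 0.90 and 0.0014). The r of Avpr2 with Hsd11b2 within the 3 blocks was -0.72, 0.18 and 0.94 (exact permutation p of 0.14, 0.74 and 0.013). A negative r within a block was not particular to Avpr2. Aqp4 with Hsd11b2 gave -0.89 in block 3 (exact permutation p = 0.014). Avpr2 with Slc14a2 gave r = 0.62 over all rats (permutation p = 0.0073, adjusted p = 0.068), which was not called. Both genes separated block 1 from the other blocks, which enters that value. Within the 3 blocks r was -0.47, -0.08 and -0.32 (exact permutation p of 0.35, 0.88 and 0.51).

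Single rats decided some of these calls. The pairs of Aqp2 with Aqp3, Aqp4, Hsd11b2 and Slc14a2, of Aqp3 with Hsd11b2 and Slc14a2, and of Aqp4 with Hsd11b2 and Slc14a2 were called in all 18 fits that left out 1 rat. Aqp3 with Aqp4 was not called without Dahl S replicate 3 or 9 or without S.SHR(2) replicate 1 or 3, with r between 0.66 and 0.68. Avpr2 with Hsd11b2 was not called without Dahl S replicate 2, 7 or 8 or without S.SHR(2) replicate 3, with r of 0.65 to 0.67. Aqp3 with Avpr2 was called in 4 of the 18 fits, those without S.SHR(2) replicate 4, 5 or 8 or Dahl S replicate 9, and its r ranged from 0.61 to 0.70. Hsd11b2 with Slc14a2 was called in 10 of 18 and lost its call without S.SHR(2) replicate 1, 2, 3 or 9 or Dahl S replicate 2, 3, 4 or 7, with r from 0.59 to 0.64. Aqp2 with Avpr2 reached r = 0.67 (adjusted p = 0.027) without Dahl S replicate 5.

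Aqp1, which lies upstream of the collecting duct, had r = -0.52 with Aqp2 (permutation p = 0.023, adjusted p = 0.086) and rho = -0.45 (adjusted p = 0.18). Among deviations within strain and block r was -0.59 (exact permutation p = 0.010, adjusted p = 0.28). Leaving out 1 rat moved r between -0.38, without S.SHR(2) replicate 1 (adjusted p = 0.31), and -0.60, without Dahl S replicate 1 (adjusted p = 0.040). It was -0.18 with the values as deposited, -0.21 with arrays centred on their medians and -0.39 without the 2 rats farthest from the median, none of them called. Aqp1 with Aqp3, Aqp4, Avpr2 and Hsd11b2 gave -0.25, -0.37, 0.07 and -0.43, with adjusted p from 0.21 to 0.90.

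Aqp1 also moved with the 3′/5′ ratio of the array's GAPDH control, which rises as RNA is shortened. Its r with the log2 ratio was -0.76 over 18 rats (permutation p = 0.0011, adjusted p = 0.0080 over 14 relations), rho was -0.41 (adjusted p = 0.31), and without the 2 rats farthest from the median ratio r was -0.19, so the relation rests on those rats. With the ratio of actin r was -0.74 (adjusted p = 0.0080), rho -0.56 (adjusted p = 0.20) and r without the 2 farthest rats -0.34. Within the blocks r was -0.98, -0.70 and -0.42 for GAPDH and -0.96, -0.72 and 0.23 for actin. Aqp2 had r = 0.51 with the actin ratio (permutation p = 0.032, adjusted p = 0.15), rho = 0.51 (adjusted p = 0.20) and, within the blocks, r of 0.93, 0.79 and -0.01. Without the 2 arrays of highest GAPDH ratio Aqp1 with Aqp2 gave r = -0.24 (adjusted p = 0.56), and the part of RNA integrity in that relation was not otherwise tested. With the GAPDH ratio Avpr2 had r = -0.29 (permutation p = 0.24, adjusted p = 0.56) and rho = -0.49 (adjusted p = 0.20). Within the blocks its r was -0.37, -0.67 and -0.67, and that of Aqp2 was 0.77, 0.73 and -0.13. Without the 2 farthest rats r for Avpr2 was -0.66. Dahl S replicate 1, with the brightest Avpr2 of block 1, had the lowest GAPDH and actin ratios of the 18, 1.19 and 2.22. The part of RNA integrity in the within-block relations of Avpr2 was not tested.

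**Figure D4:**
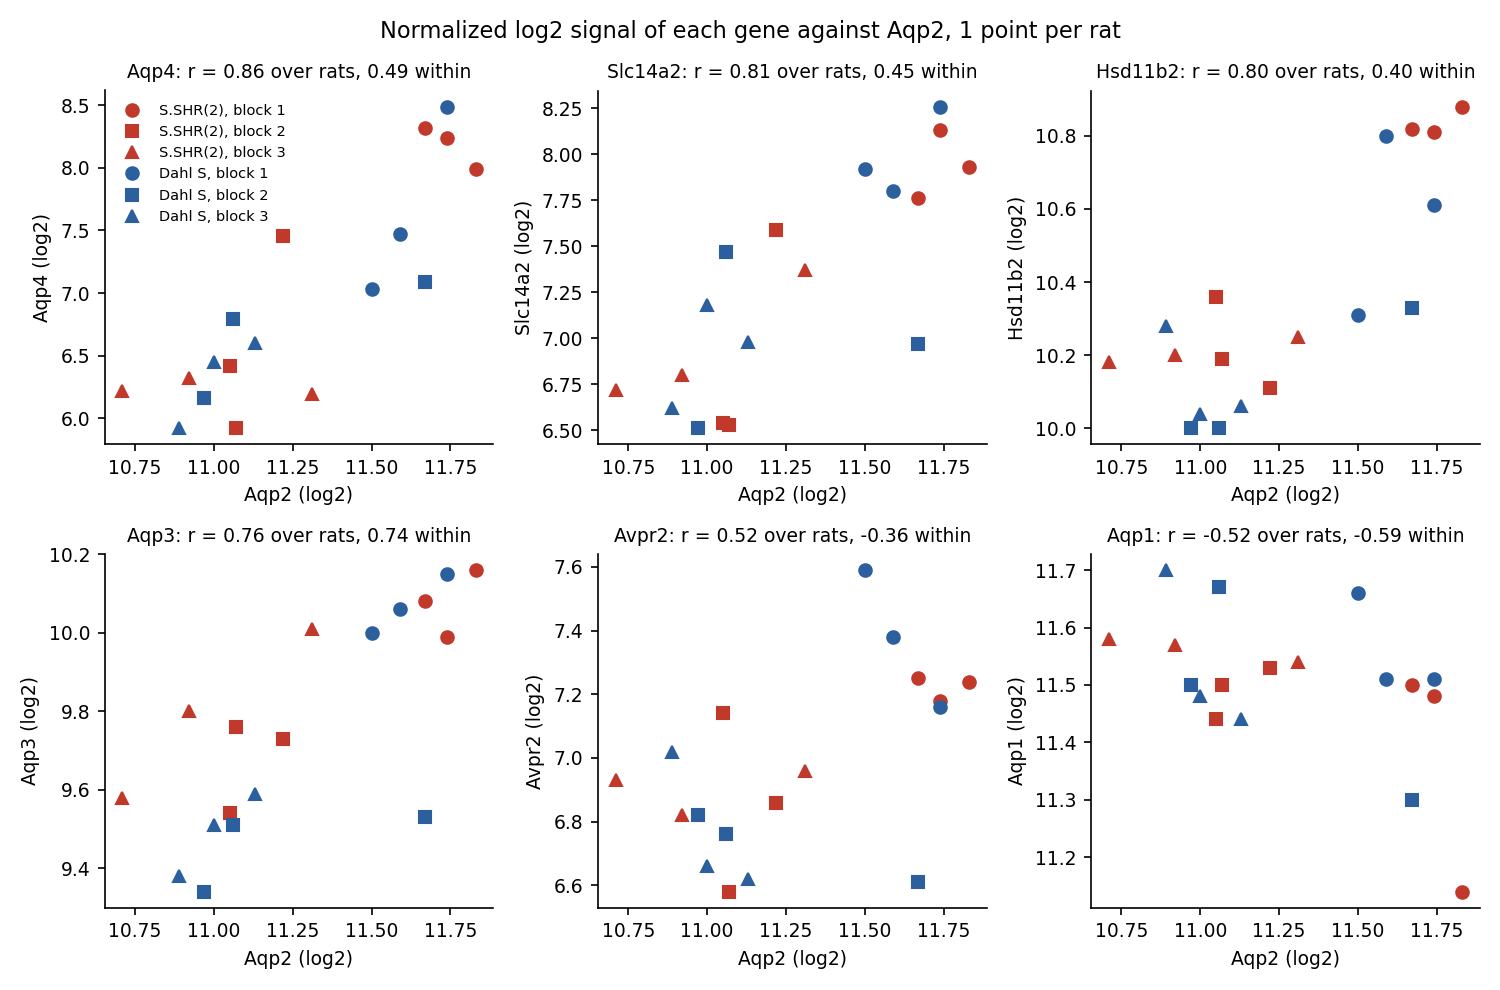
Normalized log2 signal of Aqp4, Slc14a2, Hsd11b2, Aqp3, Avpr2 and Aqp1 (vertical axes) against that of Aqp2 (horizontal axes), 1 point per rat. Red is S.SHR(2), blue is Dahl S, and circles, squares and triangles are deposit blocks 1, 2 and 3. Each title gives Pearson's r over 18 rats and then among deviations within strain and block, from 0.86 and 0.49 for Aqp4 to 0.52 and -0.36 for Avpr2. The circles of block 1 stand apart to the right in each panel, together with 1 square.

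The genes most like Aqp2 over the 18 rats, by Pearson's r of the brightest probe set, were Itm2c at 0.94, Tspan9 at 0.93, Amotl1 at 0.93, Mgst1 at 0.92 and Ecscr at 0.92. The genes least like it were Agtpbp1 at -0.89, Akr1c19 at -0.89 and Prune2 at -0.88. All 8 had a permutation p of 1.0e-05, the smallest that 100000 resamples can give, and an adjusted p of 0.0016. Among deviations within strain and block the 5 positive ones had r of 0.75 to 0.79 and the 3 negative ones -0.66 to -0.73. With Aqp2, 0 probe sets were called within strain and block after adjustment and 2265 had an unadjusted p under 0.05 by the exact permutation test. Amotl1, which encodes an angiomotin-like junction protein, had block medians of 293, 168 and 138. Mgst1, a microsomal glutathione transferase, had 4177, 3444 and 3102, and Ecscr, an endothelial surface protein, 162, 74 and 71.

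The pathway around the genes gave no strain call. Of 24 tested members of a vasopressin signalling list, from receptors and cyclases to kinase subunits and trafficking proteins, 0 were called, with a median log2 difference of -0.03. Akap7, an anchoring protein for protein kinase A, had the smallest p of that list (0.23 ± 0.0847 SE, unadjusted p = 0.015, adjusted p = 1.0, limma), followed by Stub1, a ubiquitin ligase, at 0.16, and Adcy6, a cyclase of the principal cell, at 0.12. Of 11 tested genes of the osmotic response and urea handling 0 were called, with the smallest p for Slc12a2, the basolateral sodium, potassium and chloride cotransporter (-0.14 ± 0.0633 SE, unadjusted p = 0.039, adjusted p = 1.0, limma). Of 14 corticosteroid receptor targets, the pathway that Hsd11b2 guards, 0 were called, and Sgk1, the aldosterone-induced kinase, differed by -0.21 ± 0.116 (SE, adjusted p = 1.0, limma). The remaining aquaporins tested, Aqp7, Aqp11 and Aqp12a, differed by 0.08 to 0.12.

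Between the blocks these lists behaved unevenly. In the osmotic list block 3 was wholly below block 1 for 5 of 11 genes and above it for 1, beside 9.39% and 8.48% of all tested probe sets. Named after their values were seen, the 5 were Akr1b1, the aldose reductase that makes sorbitol, Slc5a3, the inositol transporter, Nfat5, the transcription factor of the osmotic response, Slc14a1, the urea transporter of the vasa recta and red cells, and Bsnd, a chloride channel subunit. Akr1b1 had block medians of 1308, 472 and 523, a layout like that of Slc14a2, whereas Nfat5 had 1390, 1137 and 520, with its low values in block 3. In the vasopressin list 4 of 24 genes were wholly below block 1 in block 3 and 1 was above it. Of the corticosteroid targets 0 of 14 were separated between blocks 1 and 3 in either direction.

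Other markers of the principal cell did not all share the layout of Aqp2. Of 13 tested, none of them a member of the set, 2 were wholly lower and 2 wholly higher in block 3 than in block 1, beside 9.39% and 8.48% of all tested probe sets, and 1 was wholly lower in block 2, beside 4.15%. Counts this small are close to those shares. The median log2 difference of the list was -0.34 for block 2 minus block 1 and -0.12 for block 3 minus block 1, against -0.64 and -0.61 for the 5 principal cell genes of the set. Named after their values were seen, Cdh16 and Stc1 were the 2 lower genes and Tspan8 and Sctr the 2 higher ones. The epithelial sodium channel subunits Scnn1b and Scnn1g, which mark the same cell and were likewise named after their values were seen, had block medians of 159, 159 and 212 and of 198, 146 and 194. Others of the list had lower medians in both later blocks, with overlapping ranges. Among them, also named after their values were seen, were Gata3 (136, 95.4 and 71.2), Tfcp2l1 (1274, 1014 and 777), Fxyd4 (464, 154 and 318) and Ptges (205, 147 and 159). Intercalated cell markers were separated from block 1 in 0 of 8 genes in block 3 and in 1 of 8, Rhcg, in block 2, also close to those shares.

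Markers of other cells and the quality of the arrays also moved between blocks. The summed intensity of 10 macrophage markers ran from 3839 to 4832 in block 1, from 6197 to 6701 in block 2 and from 6252 to 7948 in block 3. The sum follows 2 bright genes closely, Cd74 (block medians 1895, 3061 and 3215) and Lyz2 (1507, 2384 and 2796). Of 9 tested, 5 were wholly above block 1 in block 2 and 5 in block 3, beside 4.54% and 8.48% of all tested probe sets. Others overlapped, such as Mrc1 (59.5, 43.2 and 62.2). The summed intensity of 9 endothelial markers ran from 4046 to 4163, from 2992 to 3429 and from 2544 to 2940. Within that list Vwf, von Willebrand factor, went the other way, with a median log2 difference from block 1 of 2.33 in block 2 and 1.54 in block 3 and no overlap. The sum of 7 markers of the distal convoluted tubule, the segment upstream, ran from 4912 to 5718, from 3316 to 4181 and from 3392 to 4020. Its block medians were 5234, 3750 and 3864. Those of Calb1, calbindin, alone were 2595, 1473 and 1022, so the sum follows this 1 bright gene closely and does not show a fall of the whole list. Of its 6 tested genes 3 were wholly lower in block 2 than in block 1, beside 4.15% of all tested probe sets. They were Calb1, Wnk1 and Slc8a1, the sodium and calcium exchanger. Calb1 and Slc8a1 were the 2 wholly lower in block 3, beside 9.39%. Slc12a3, the thiazide-sensitive cotransporter, was wholly higher in block 3, beside 8.48%, with medians of 420, 362 and 713. The single genes of these lists, with Rhcg, were named after their values were seen. No marker of these lists was at 0 on every array. The 3′/5′ ratio of GAPDH was 1.19 to 2.51 in block 1, 1.28 to 2.04 in block 2 and 1.50 to 1.60 in block 3, and that of actin had medians of 3.49, 3.68 and 2.63. The part of these in the block differences was not tested. Without the 2 arrays of highest GAPDH ratio, S.SHR(2) replicate 1 and Dahl S replicate 5, block 3 was wholly below block 1 for 6 of the 9 tested probe sets. With fewer arrays in block 1 full separation is easier for any probe set. The share of all tested probe sets under this setting is not given here, so the count is not read as a stronger result.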

How the data were processed

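Total RNA of whole kidney was measured on 1 array per rat in 18 rats. Per the labels' protocols, Trizol extraction and RNeasy purification came first, then labelling of 10 µg as biotinylated cRNA, 15 µg of which was hybridised. The authors deposited linear intensities, a single value for each probe set on each array. The sources used here do not name the software behind them. Their mean, after trimming 2% at each end, was 150.046 to 150.054 on every array, so each array had been scaled to a common level. The number of arrays limits the precision. No 2 arrays held identical values, and arrays correlated at 0.909 to 0.988.

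Controls, 57 probe sets, were removed. Intensities were transformed as log2(intensity + 16), so changes of dim genes are understated, and quantile normalized, because array medians spanned 0.235, over a limit of 0.2. The 40% of probe sets with the lowest means, up to 5.48, were not tested. Strains were compared with limma 3.58.1 in R 4.3.3 (lmFit and eBayes with an intensity trend, no covariates, two-sided). Errors of log2 differences are SEs from the model, and intensities are given with SDs. Correlations were computed in Python 3.11.15 with scipy 1.17.1. The fit and the correlations were tested on simulated data. Each sample title has its own code, and rats were taken as the replicates.

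Gene names came from the platform annotation: 20826 probe sets have 1 gene, 436 several and 9780 none, and 20758 of the first matched the RefSeq gene table of GRCr8. The deposited values name no genome build, so coordinates are given for RefSeq promoter windows alone. A gene in a list is its brightest probe set. Besides the 8 genes, the text names the 5 genes most like and the 3 least like Aqp2 and up to 3 genes per list by strain p, and others are marked. The genes and lists were chosen with earlier results of these data known. Lists for distal convoluted tubule, thick ascending limb, proximal tubule, erythroid cells and podocytes, like all others, had 0 strain calls. Alternatives were 2 other pseudocounts, other filters, other scalings, array weights, the block as a term and each rat left out. A block for slide or scan date was not run, since neither was used here.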

Additional observations from a re-analysis of the deposited data

Results flagged for a closer look

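In the 9 S.SHR(2) rats the Aqp1 signal of replicate 1 stood apart from the others by a test for single outlying values. By 1369625_at it read 2166, against 2767 to 3120 in the other 8 S.SHR(2) rats. By the second Aqp1 probe set, 1387651_at, the same rat read 755, against 1185 to 1649. Its array had the highest GAPDH 3′/5′ ratio of the 18, 2.51, and the highest actin ratio, 6.83. The Dahl S rat with the next highest GAPDH ratio, 2.04, was replicate 5, which read 2375 and 1027 by the Aqp1 probe sets, the lowest of block 2. The strain difference of Aqp1 was -0.05 by either probe set with all rats, and -0.04 by 1369625_at and 0.00 by 1387651_at without these 2 arrays. The test examined 32 groups and flags about 1 group in 20 by chance.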

How the results depend on the processing

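No member of the set was called between strains under any alternative that was run. The count of strain calls over all probe sets, 23, became 41 with array weights and 92 with the deposit block as a term, and was 16 to 28 when each rat was left out. Of the 10 principal cell pairs, 8 of which were called, 5 were called by Spearman's rho, 3 without the 2 rats farthest from the median, 0 on deviations within strain and block, where 0% of all probe sets were, and 5 with arrays centred on their medians, where positive calls made up 7.89, 3.04, 4.82, 2.09 and 4.20% of all probe sets for Aqp2, Aqp3, Aqp4, Avpr2 and Hsd11b2. With each rat left out the count was 5 to 8, where positive calls made up 1.66 to 11.5% of all probe sets. The 5 was without S.SHR(2) replicate 3, with 7.77, 2.84, 5.50, 2.17 and 5.84% for these genes in the same order. The count was 6 with the values as deposited, with 11.1, 2.86, 8.04, 3.93 and 6.46%. With either other pseudocount the count was 7, with 3.64 to 10.1%. The cause of these differences was not tested. Small strain differences changed sign. Aqp2 became 0.04 as deposited, 0.08 centred and 0.00 with array weights. Avpr2 became -0.03 without the 2 arrays of highest GAPDH ratio, a setting chosen after seeing the data. Slc14a2 by 1371205_at became -0.03 as deposited. Aqp1 became 0.02 centred by 1369625_at, and by 1387651_at 0.01 centred, 0.02 with array weights and 0.00 without those 2 arrays. With each rat left out the strain difference ran from -0.08 to 0.07 for Aqp2, -0.04 to 0.32 for Aqp4, -0.00 to 0.12 for Avpr2, -0.15 to 0.08 and -0.05 to 0.07 for Slc14a2, and -0.10 to 0.04 for Aqp1 by 1387651_at. On deviations within strain and block r turned to -0.36 for Aqp2 with Avpr2, -0.55 for Aqp3 with Avpr2, -0.38 for Aqp4 with Avpr2, -0.23 for Avpr2 with Slc14a2 and -0.27 for Hsd11b2 with Slc14a2. Aqp3 with Aqp1 was 0.08 centred, and Avpr2 with Aqp1 was -0.14 without the 2 farthest rats and -0.11 to 0.33 with each rat left out. No paired analysis was possible because replicate numbers follow the order of deposit and only name the rats. No detection calls were used here, so how far the dim probe sets of Aqp6, Avpr2 and Slc14a2 stand above background is unknown.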
